A study of Homo sapiens with 59 samples.

Results

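The genes described here are 10 members of the circadian clock and its direct output: PER1, PER2, PER3, CRY1, CRY2, NR1D1, NR1D2, DBP, BHLHE40 and BHLHE41. They were taken by gene symbol from a count table of 60675 genes, in which all 10 were found. All 10 were among the 18568 genes with enough counts to be tested. The RNA came from A549, an established line of human lung adenocarcinoma cells grown in culture, harvested 24 h after an herbal extract or vehicle was added. Every extract was made with 70% ethanol and was tested at 3 doses, called high, medium and low here. The doses of Coptidis Rhizoma were 110, 22 and 4.4 µg/mL. Those of Bupleuri Radix were 190, 38 and 7.6 µg/mL. For Aconiti Lateralis Radix Preparata, Yijung-tang, Zizyphi Fructus, Banhasasim-tang, Cimicifugae Rhizoma and Citri Unshius Pericarpium the doses were 500, 100 and 20 µg/mL. The vehicle was DMSO, at 0.1% in the sample labels and at 2% in the text of the series. The vehicle group had 3 libraries, and 1 to 3 libraries were made for each of the 24 combinations of extract and dose, 59 libraries in all.

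The mammalian clock is a feedback loop of transcription. CLOCK or its relative NPAS2 pairs with BMAL1 and switches on genes that carry E-boxes, among them the PER, CRY, NR1D and BHLHE genes. PER and CRY proteins then inhibit that pair, and BHLHE40 and BHLHE41 repress through the same E-boxes. NR1D1 and NR1D2 encode the nuclear receptors REV-ERB alpha and REV-ERB beta, which repress BMAL1, and DBP is an activator that binds D-boxes. Several of these genes also respond quickly to hormones, cAMP, serum and stress. The series took a single time after treatment, so each level below is a level at 24 h and gives no phase or rhythm.

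The libraries held 17214755 to 39751161 expected counts. The cells carried the labelled line's markers: KRT8 was at 1956 CPM or more, AKR1B10 at 1879 or more and ALDH1A1 at 4560 or more in every library, where CPM is the count scaled by library size with TMM factors. EPCAM was low, at 2.41 to 9.32 CPM, and CDH1 read 5.22 to 37.6 CPM. Of the alveolar markers, SFTPC and NKX2-1 were at most at 0.134 CPM and SFTPB at most at 0.322, while AGER read 0.822 to 5.37 CPM. PTPRC of leukocytes was at most at 0.0488 CPM, and CD3E was at 0 in every library. Not all markers of other cell types were absent: CD68 read 2.47 to 30.4 CPM, COL1A1 4.23 to 74.8 and ACTA2 3.70 to 12.0. A set of 4 libraries stood apart in work on these data that preceded the choice of tests: the third replicates of the high and medium doses of Citri Unshius Pericarpium, and the second replicates of the medium and low doses of Cimicifugae Rhizoma. The 6 libraries of Coptidis Rhizoma and the high and medium doses of Banhasasim-tang also stood apart, with 6.09% to 15.2% of counts in mitochondrial rRNA against at most 3.87% elsewhere. Genes annotated as antisense took 3149 to 4600 CPM in the set of 4 and 2374 to 3137 CPM in the other 55. All 59 libraries share 1 estimate of the spread, so the tests are given with all libraries and, where a call differs, without these 4. The first number of each library code was read as a library set: Coptidis Rhizoma with Zizyphi Fructus, Citri Unshius Pericarpium with Cimicifugae Rhizoma, Bupleuri Radix with Aconiti Lateralis Radix Preparata, and Yijung-tang with Banhasasim-tang. The titles of all 59 libraries, vehicle included, carry the same label, Second_BatchD. In the library codes the vehicle has a code of its own, so an effect of a set and an effect of an extract against vehicle cannot be told apart. High against low dose, and extract against extract in a set, compare libraries of 1 set.

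Windows from 250 bases before to 50 bases after the annotated start were read for the members from RefSeq (GRCh38.p14), and all 10 had at least 1. The stretches below show clock elements of the NR1D genes, which have the most calls in these data, and of the 3 PER genes, with capitals marking an E-box (CACGTG), an E-box variant (CACGTT) or a D-box (TTANGTAA), on either strand. None overlaps an exon of its gene in GENCODE 29. Each is written 5′ to 3′ on the strand of the gene.
NR1D2, chr3:23945921-23946030, plus strand: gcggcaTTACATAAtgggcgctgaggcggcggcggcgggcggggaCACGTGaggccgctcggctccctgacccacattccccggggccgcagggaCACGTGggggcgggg
NR1D1, chr17:40100730-40100779, minus strand: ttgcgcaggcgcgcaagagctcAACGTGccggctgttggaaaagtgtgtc
PER3, chr1:7784091-7784150, plus strand: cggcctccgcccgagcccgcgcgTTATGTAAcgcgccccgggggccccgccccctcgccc
PER2, chr2:238288751-238288831, minus strand: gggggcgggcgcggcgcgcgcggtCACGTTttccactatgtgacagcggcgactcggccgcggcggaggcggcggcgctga
PER1, chr17:8152535-8152594, minus strand: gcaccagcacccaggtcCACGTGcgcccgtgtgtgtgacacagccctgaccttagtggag

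Positions are counted from the start at 0. NR1D2 carries 2 E-boxes, at -155 and -105 from the later of its 2 RefSeq starts, and a D-box at -194. PER1 has its E-box at -173, and E-boxes were also found in the windows of BHLHE40 and BHLHE41. NR1D1 and PER2 have the variant instead, at -168 and -197, and PER3 has a D-box at -177 from the first of its 2 starts. The variant was also found for CRY1 at -89 and for CRY2 at -188 from the later of its 2 starts. The window of DBP held no E-box, variant or D-box, and neither did 1 window each of NR1D2, PER3 and CRY2. PER2 also has a D-box, TTACGTAA at -3, which overlaps the start and lies outside the stretch shown. BHLHE40 has its E-box at -245, and that stretch is not shown. Of 35116 promoter windows of the same length in the RefSeq table, 7.26% held an E-box, 5.34% the variant and 2.18% a D-box. No member's window held the full cAMP response element TGACGTCA, which 1.85% of windows held. These matches describe letters in a window, and binding was not measured.

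Per kilobase of exon, the highest vehicle level was that of BHLHE40, at 31.1 CPM per kb. CRY1 at 6.67, PER2 at 5.34, NR1D2 at 3.49, NR1D1 at 3.07 and PER1 at 2.07 CPM per kb came next. CRY2 stood at 1.27, PER3 at 0.594 and DBP at 0.367 CPM per kb. BHLHE41 was barely expressed, at 0.0775 CPM per kb in vehicle and at 2 to 18 counts per library over the series. Differences of BHLHE41 below the size of that counting error were not detectable at this depth.

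NR1D1 and NR1D2 rose together in cells given medium-dose Aconiti Lateralis Radix Preparata, to the highest group mean of each in the series. NR1D1 read 7.91, 9.41 and 8.19 CPM in the vehicle libraries. With medium-dose Aconiti Lateralis Radix Preparata it read 23.7 and 21.5 CPM, at the high dose 12.5, 14.6 and 13.8, and at the low dose 8.69, 10.4 and 9.004. Both the medium and the high dose lay above every vehicle library, the medium dose lay above the high dose, and the low dose overlapped vehicle. The medium dose mean was 22.6 ± 1.56 CPM (SD, n = 2) against 8.50 ± 0.799 (n = 3) in vehicle, a log2 change of 1.41 ± 0.17 (SE; edgeR quasi-likelihood, adjusted p = 3.5e-08). The high dose mean was 13.6 ± 1.04 CPM (n = 3), a log2 change of 0.68 ± 0.16 (adjusted p = 0.00492), in a comparison that called 2.56% of all tested genes higher. In bulk RNA, a change in the number of cells of a kind and a change in RNA per cell cannot be told apart.

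NR1D2, the closest relative of NR1D1, showed the same order of doses. Its vehicle libraries read 22.0, 19.6 and 19.5 CPM. With Aconiti Lateralis Radix Preparata it read 45.5 and 51.7 CPM at the medium dose, 27.3, 24.4 and 27.0 at the high dose, and 18.2, 15.6 and 17.4 at the low dose. All 3 low-dose libraries were below every vehicle library and all 5 others were above. The medium dose differed from vehicle by 1.26 ± 0.18 on the log2 scale (adjusted p = 7.35e-07). For the high dose the log2 change was 0.37 ± 0.16 and the adjusted p 0.242, or 0.00158 without the 4 libraries, when 7.24% of genes were called higher. The comparison called 8.23% of all tested genes higher at the medium dose, against 2 of the 10 members, and 17.5% in either direction.

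Between doses of the extract, where the vehicle is not used, NR1D1 was 0.54 ± 0.15 log2 units higher at the high than at the low dose (adjusted p = 0.0363). NR1D2 was 0.62 ± 0.16 higher in the same comparison (adjusted p = 0.0185), which called 1.56% of all genes higher (5.03% without the 4 libraries). Each of these calls was lost when any of 4 of the 6 libraries was left out: for NR1D1 low replicate 1 or 3 or high replicate 2 or 3 (adjusted p 0.185, 0.138, 0.155 and 0.101), and for NR1D2 low replicate 2 or 3 or high replicate 1 or 3 (0.119, 0.056, 0.0779 and 0.0688). Comparisons with the medium dose were added after the values had been seen. Medium against low, the log2 change was 1.27 ± 0.17 for NR1D1 (adjusted p = 1.96e-07) and 1.51 ± 0.18 for NR1D2 (adjusted p = 1.58e-08), and 7.93% of genes were called higher. Medium against high, NR1D1 was 0.73 ± 0.17 higher (adjusted p = 0.00278, and 0.0668 without medium replicate 1) and NR1D2 0.89 ± 0.17 higher (adjusted p = 0.000512), with 3.14% of genes called higher. The larger response of both genes thus lay at 100 and not at 500 µg/mL.

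NR1D1 overlaps THRA, the thyroid hormone receptor alpha gene, by 1081 bases of the opposite strand. The libraries were directional, but nothing used here states the strand setting of the counting. THRA averaged 38.4 CPM in vehicle and 20.7 CPM with medium-dose Aconiti Lateralis Radix Preparata, opposite in direction to NR1D1. NR1D2 overlaps NKIRAS1 on the other strand, which averaged 9.52 CPM in vehicle and 12.0 CPM at that dose. What reads from these partners add to the counts was not tested.

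With Bupleuri Radix, NR1D1 rose at the high dose. The libraries read 14.2, 14.3 and 12.4 CPM at the high dose, 9.75, 9.51 and 9.49 at the medium dose and 10.1, 9.27 and 8.87 at the low dose. Every high-dose library lay above every other library of the extract and of vehicle. The change against vehicle was 0.68 ± 0.16 on the log2 scale (edgeR adjusted p = 0.00732, and 0.0548 without vehicle replicate 1), in a comparison that called 2.05% of all genes higher. Against the low dose it was 0.53 ± 0.15 (adjusted p = 0.0745, and 0.00577 without the 4 libraries). NR1D2 under Bupleuri Radix read 22.6, 24.2 and 23.7 CPM at the high dose, 19.5, 19.6 and 19.2 at the medium dose and 18.4, 15.4 and 18.1 at the low dose. For NR1D2 the high dose was above vehicle in all 3 libraries, but the change of 0.21 ± 0.16 log2 units was not called (adjusted p = 0.646, and 0.0910 without the 4 libraries). High against low dose, NR1D2 was 0.44 ± 0.16 higher (0.267, and 0.00048 without them, when 3.26% of genes were called higher).

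Coptidis Rhizoma showed the other order of the pair, with NR1D2 higher and NR1D1 near vehicle. NR1D2 read 31.9 and 29.9 CPM at the high dose, 25.1 and 26.0 at the medium dose and 23.0 and 22.3 at the low dose, all 6 above every vehicle library. The same 6 libraries held 6.09% to 11.1% of their counts in mitochondrial rRNA, against 2.24% to 2.43% in vehicle, highest at the medium dose, and the part of that in NR1D2 was not tested. NR1D1 read 8.29 and 8.11 CPM at the high dose, 8.22 and 9.95 at the medium dose and 8.36 and 8.85 at the low dose, overlapping vehicle at each dose. At the high dose NR1D2 was 0.60 ± 0.18 log2 units above vehicle (edgeR adjusted p = 0.0185), and 6.41% of all genes were called higher. That call was lost without vehicle replicate 2 (adjusted p = 0.0511) or 3 (0.0512) and without either high-dose library (0.134 without replicate 2, 0.0664 without replicate 3). Against Zizyphi Fructus at its high dose, from the same library set but at another concentration, NR1D2 was 0.71 ± 0.20 higher (adjusted p = 0.0158, 4.1% of genes called higher). Without the 4 libraries NR1D2 was also called higher at the medium dose of Coptidis Rhizoma (0.34 ± 0.10, adjusted p = 0.0152, 6.17% of genes called higher) and at its high against its low dose (0.46 ± 0.10, 0.0022, 4.5%). The call against Zizyphi Fructus was lost without Coptidis Rhizoma replicate 2 (0.105) or 3 (0.0522) or Zizyphi Fructus replicate 3 (0.178).

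Zizyphi Fructus, Yijung-tang, Citri Unshius Pericarpium and Cimicifugae Rhizoma gave no call for either gene against vehicle. For NR1D1, Zizyphi Fructus read 9.36 and 8.35 CPM at the high dose, 8.04 and 9.87 at the medium dose and 9.60 and 8.78 at the low dose. Yijung-tang read 11.8 and 8.96, then 8.52 and 8.96, then 8.37 and 9.13 CPM for NR1D1 from the high to the low dose. Only 1 of the Yijung-tang libraries, at the high dose, was above vehicle. With Citri Unshius Pericarpium, NR1D1 was at 9.35, 13.9 and 7.16 CPM at the high dose, 7.04, 8.81 and 9.15 at the medium dose and 6.78, 8.97 and 8.81 at the low dose. With Cimicifugae Rhizoma it was at 8.44, 10.2 and 8.59, then 12.7, 8.49 and 8.79, then 9.14, 7.55 and 8.88 CPM. Single libraries of those extracts were high, at 13.9 and 12.7 CPM. Their group mates were inside the vehicle range, except 7.16 CPM, which lay below it in 1 of the 4 libraries that stand apart. The 10.2 CPM library at the high dose of Cimicifugae Rhizoma was also above vehicle.

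NR1D2 in the same groups read 17.1 to 24.4 CPM apart from the 4 libraries. Zizyphi Fructus read 20.0 and 17.7, 19.7 and 18.7, and 20.1 and 19.0 CPM from the high to the low dose, and Yijung-tang 18.9 and 21.7, 18.5 and 17.4, and 18.8 and 19.2. Citri Unshius Pericarpium read 20.8, 22.3 and 11.9 CPM, then 20.1, 24.4 and 12.2, then 20.3, 17.6 and 17.1. Cimicifugae Rhizoma read 22.6, 17.9 and 21.2 CPM, then 18.2, 15.0 and 18.7, then 20.2, 13.9 and 18.9. The 4 lowest readings, 11.9 to 15.0 CPM, are the 4 libraries that stand apart. Without those 4, the medium against the low dose of Citri Unshius Pericarpium became a call for NR1D2 (0.29 ± 0.09, adjusted p = 0.0437, 7.38% of genes called higher). That comparison was added after the values had been seen. Its groups overlapped, with 20.1 and 24.4 CPM at the medium and 20.3, 17.6 and 17.1 at the low dose. Same-numbered libraries varied together in this comparison (r 0.156 to 0.323 with all libraries), and the test did not pair them. In replicate 1 NR1D2 read 20.1 CPM at the medium and 20.3 at the low dose. Replicate 2 read 24.4 and 17.6 CPM, so the rise was in that replicate only.

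**Figure D1:**
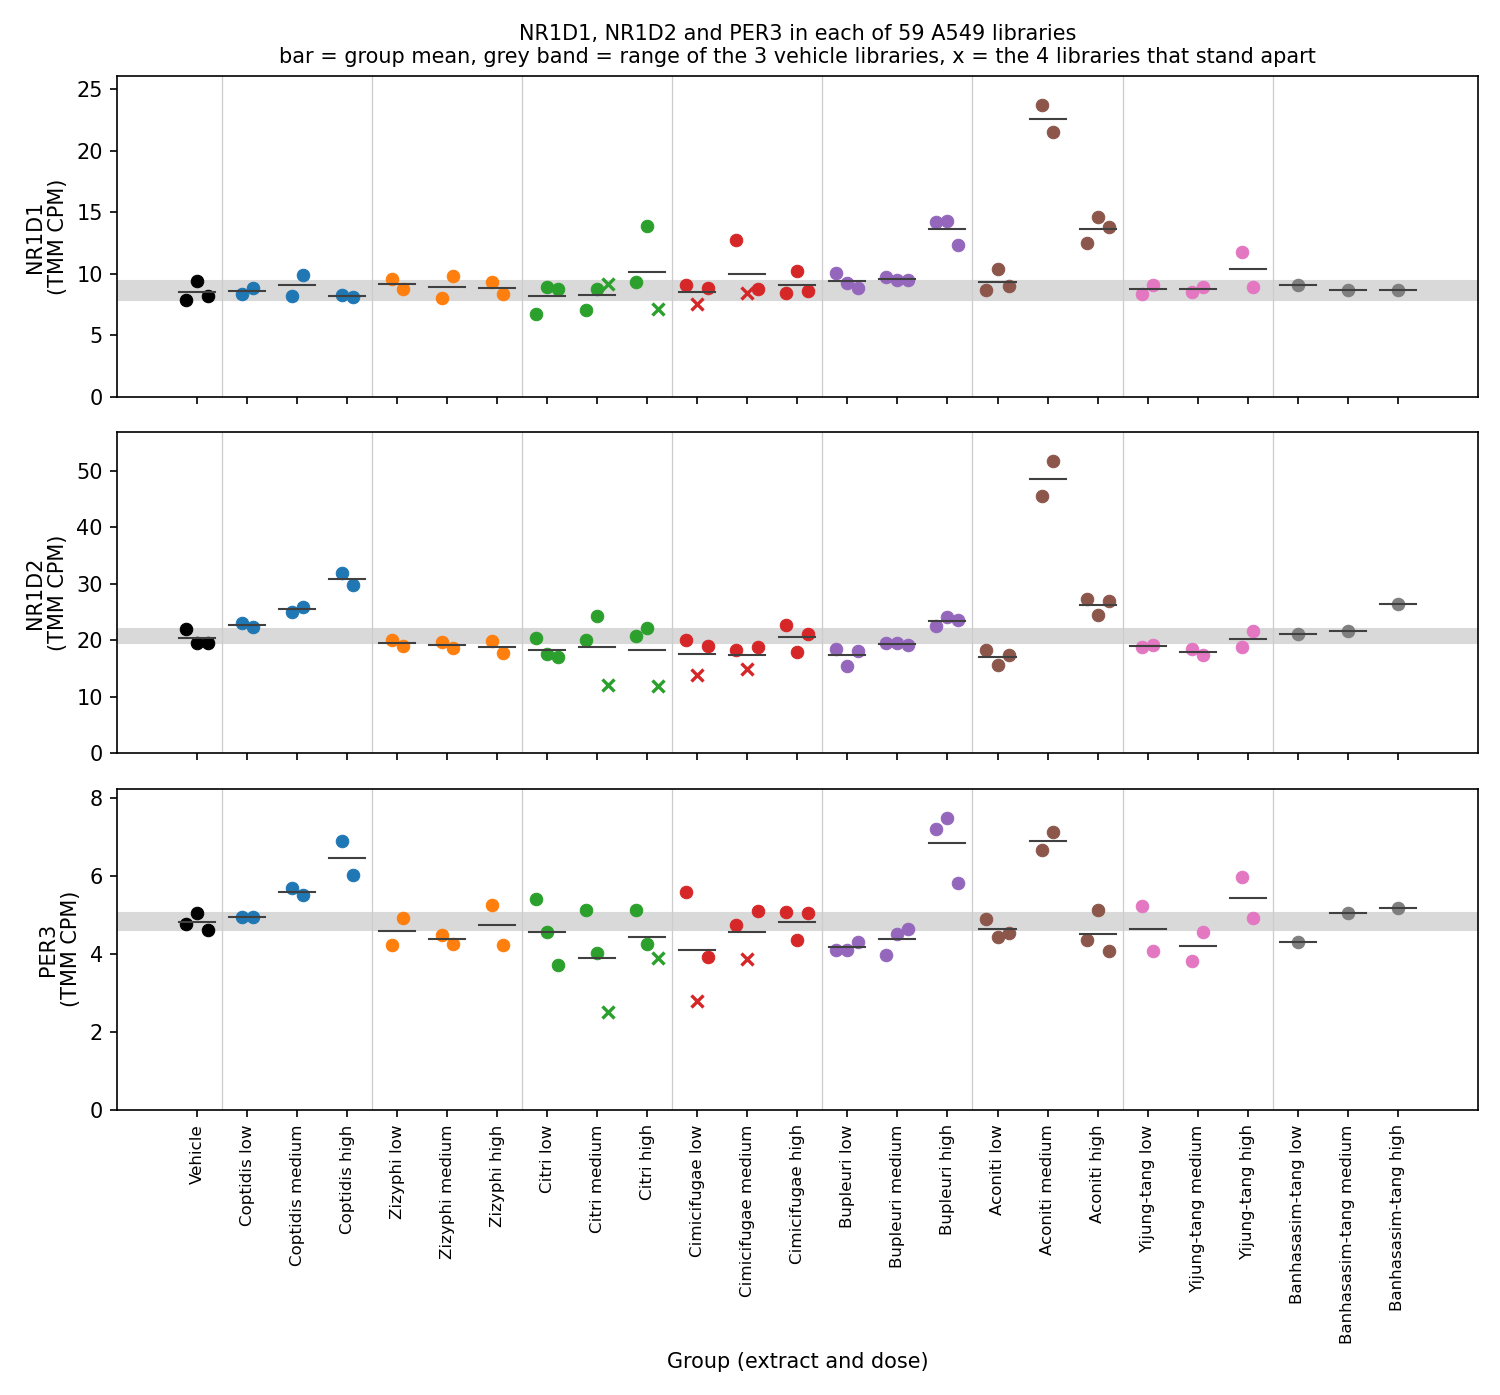
CPM (TMM-scaled) of NR1D1, NR1D2 and PER3 on the vertical axes for each of the 59 libraries, grouped by extract and dose along the horizontal axis. Dots are libraries, short bars group means, the grey band the range of the 3 vehicle libraries and crosses the 4 libraries that stand apart; NR1D1 and NR1D2 are highest with medium-dose Aconiti Lateralis Radix Preparata (22.6 and 48.6 CPM).

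PER3, the period gene with the weakest role in keeping the loop running, had its 3 highest group means where an NR1D gene was high. It read 4.78, 5.06 and 4.61 CPM in vehicle. It read 7.21, 7.49 and 5.82 CPM at the high dose of Bupleuri Radix, 6.66 and 7.13 with medium-dose Aconiti Lateralis Radix Preparata and 6.89 and 6.03 at the high dose of Coptidis Rhizoma. These 3 groups lay wholly above vehicle and overlapped each other. For Bupleuri Radix, high against low dose, PER3 rose by 0.71 ± 0.18 log2 units (edgeR adjusted p = 0.0247, 1.02% of genes called higher). That call was lost without high replicate 1 (adjusted p = 0.12) or 2 (0.169) and without low replicate 1 (0.114), 2 (0.108) or 3 (0.082). Against vehicle the log2 changes were 0.50 ± 0.18 for Bupleuri Radix (adjusted p = 0.126), 0.52 ± 0.20 for Aconiti Lateralis Radix Preparata (0.0627) and 0.42 ± 0.20 for Coptidis Rhizoma (0.177). Without the 4 libraries the adjusted p were 0.00773, 0.00431 and 0.0253, and 7.21%, 16.5% and 14.1% of all genes were called higher.

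PER3 did not follow NR1D1 with high-dose Aconiti Lateralis Radix Preparata. There it read 4.35, 5.13 and 4.07 CPM, overlapping vehicle, and 4.91, 4.44 and 4.54 at the low dose. In the comparisons added later it was 0.57 ± 0.19 log2 units higher at the medium than at the low dose (adjusted p = 0.0331) and 0.61 ± 0.19 higher than at the high dose (adjusted p = 0.0441). Leaving out either medium library lost both calls, with adjusted p of 0.0897 and 0.193 against the low dose and 0.151 and 0.29 against the high dose. Low replicate 2 or 3 (0.0868, 0.0739) and high replicate 1 or 3 (0.121, 0.163) did the same, each for its own comparison. Both calls were also lost with no low-count filter (0.0573 against the low and 0.0884 against the high dose). Bupleuri Radix and Aconiti Lateralis Radix Preparata, 1 library set, differed in PER3 at the high dose by 0.59 ± 0.18 (adjusted p = 0.0919, and 0.00273 without the 4 libraries, when 3.05% of genes were called higher), at 190 and 500 µg/mL.

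The other PER3 readings lay near vehicle. Coptidis Rhizoma read 5.70 and 5.51 CPM at the medium dose and 4.94 in both libraries at the low dose, and Bupleuri Radix 3.96, 4.52 and 4.64, then 4.11, 4.11 and 4.32. Zizyphi Fructus read 5.26 and 4.23, 4.49 and 4.25, and 4.24 and 4.93 CPM from high to low, and Yijung-tang 5.97 and 4.92, 3.82 and 4.57, and 5.23 and 4.07. Both Coptidis Rhizoma medium libraries were above vehicle, and the low dose of Bupleuri Radix and the medium doses of Zizyphi Fructus and Yijung-tang were below it. Citri Unshius Pericarpium read 5.13, 4.26 and 3.89 CPM, then 5.12, 4.03 and 2.51, then 5.42, 4.57 and 3.71. Cimicifugae Rhizoma read 5.08, 4.36 and 5.04 CPM, then 4.74, 3.88 and 5.09, then 5.59, 2.79 and 3.92. The lowest PER3 values of the series, 2.51 and 2.79 CPM, are 2 of the 4 libraries that stand apart.

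PER2, a core repressor of the loop, read lower than vehicle without overlap at the high doses of several extracts. None of these differences was an edgeR call with all libraries. Vehicle read 39.5, 36.5 and 34.2 CPM. Bupleuri Radix at the high dose read 26.0, 24.7 and 24.7 CPM, Yijung-tang 26.4 and 26.6, Aconiti Lateralis Radix Preparata 27.0, 28.4 and 29.1, and Coptidis Rhizoma 31.1 and 29.3. Their low doses read 40.5, 38.4 and 38.1 CPM for Bupleuri Radix, 37.5 and 37.7 for Yijung-tang, 37.5, 34.5 and 38.9 for Aconiti Lateralis Radix Preparata and 36.2 and 34.4 for Coptidis Rhizoma. In each of these extracts every high-dose library was below every low-dose library. Groups did not overlap for PER2 in 13 of the 31 comparisons, and for CRY2, which was called nowhere, in 6. How often groups did not overlap over all genes was not counted. With all 59 libraries edgeR called PER2 in 0 of 31 comparisons, and 10 had an unadjusted p below 0.05. DESeq2 called it lower with high-dose Citri Unshius Pericarpium against vehicle (adjusted p = 0.048) and at the high against the low dose of Bupleuri Radix (0.0355). The log2 changes against vehicle were -0.55 ± 0.19 for Bupleuri Radix (edgeR adjusted p = 0.109), -0.47 ± 0.21 for Yijung-tang (0.376), -0.38 ± 0.19 for Aconiti Lateralis Radix Preparata (0.314) and -0.28 ± 0.21 for Coptidis Rhizoma (0.453).

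The spread behind those tests includes PER2 readings of 16.2, 22.7, 26.8 and 16.6 CPM in the 4 libraries that stand apart. Without them PER2 was called lower in 9 of the 31 comparisons and higher in 0; of the comparisons added later, it was then higher at the medium than with high-dose Aconiti Lateralis Radix Preparata (0.40 ± 0.09, adjusted p = 0.00118, 10.3% of genes called higher). It was also lower with medium-dose Citri Unshius Pericarpium against vehicle (-0.32 ± 0.09, 0.0489, 1.12% of genes called lower) and against its low dose (-0.28 ± 0.09, 0.046, 3.78%). The medium-dose libraries then left were uneven, at 33.7 and 25.1 CPM. The adjusted p against vehicle became 1.13e-05 for Bupleuri Radix, 0.000943 for Yijung-tang, 0.000925 for Aconiti Lateralis Radix Preparata and 0.0268 for Coptidis Rhizoma, in comparisons that then called 7.09%, 4.66%, 7.74% and 13.8% of genes lower. High against low dose, it became 8.79e-07 for Bupleuri Radix (log2 change -0.63 ± 0.08), 0.00225 for Yijung-tang (-0.50 ± 0.10) and 0.00103 for Aconiti Lateralis Radix Preparata (-0.38 ± 0.08). Those comparisons then called 2.3%, 0.943% and 4.67% of genes lower.

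PER2 did not follow the NR1D genes. With medium-dose Aconiti Lateralis Radix Preparata, where NR1D1 and NR1D2 peaked, PER2 read 35.0 and 38.8 CPM, inside the vehicle range. The medium doses of Bupleuri Radix (35.4, 33.4 and 37.8 CPM), Coptidis Rhizoma (31.4 and 34.7) and Yijung-tang (31.5 and 35.8) overlapped vehicle or came close to it. Zizyphi Fructus read 38.3 and 36.1, 38.4 and 33.2, and 37.9 and 39.1 CPM from high to low, with 1 of 6 libraries below vehicle. Citri Unshius Pericarpium read 31.7 and 28.8 CPM at the high dose, 33.7 and 25.1 at the medium dose and 37.4, 32.1 and 37.6 at the low dose outside the 4 libraries. Cimicifugae Rhizoma read 36.6, 31.3 and 35.3 CPM at the high dose, 40.1 and 38.2 at the medium dose and 36.4 and 39.99 at the low dose.

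PER1, a period gene that glucocorticoids and cAMP can induce, moved little. Its vehicle mean was 14.5 ± 0.463 CPM, and its 59 libraries spanned 10.3 to 17.7 CPM. Group means ran from 16.6 ± 1.53 CPM with Zizyphi Fructus at the high dose to 11.5 ± 0.868 with Yijung-tang at the high dose. None of the 31 comparisons called it with all libraries in edgeR, and 6 had an unadjusted p below 0.05, with log2 changes from -0.37 to 0.19. DESeq2 called it lower at the high against the low dose of Bupleuri Radix (adjusted p = 0.0464). Without the 4 libraries it was called lower in 3: Yijung-tang high against vehicle (-0.32 ± 0.10, adjusted p = 0.0381), Bupleuri Radix high against low (-0.34 ± 0.09, 0.0121) and Coptidis Rhizoma high against Zizyphi Fructus high (-0.35 ± 0.11, 0.0201). In the last comparison 10.1% of genes were then called lower and 10.4% higher, and PER2 was lower (-0.28 ± 0.10, adjusted p = 0.0440) and PER3 higher (0.47 ± 0.16, 0.0371) as well.

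The cryptochromes are partners of PER in the repressing complex. CRY1 averaged 33.7 ± 1.10 CPM in vehicle and 40.5 ± 0.424 CPM (n = 2) with medium-dose Aconiti Lateralis Radix Preparata, its highest group mean, with both libraries above every other library of the series. That difference was 0.26 ± 0.13 on the log2 scale (edgeR adjusted p = 0.172, and 0.0014 without the 4 libraries). CRY1 was lowest in the 4 libraries that stand apart, at 19.3 to 27.2 CPM, against 27.9 to 40.8 in the other 55. Without those 4, CRY1 was also called lower with Cimicifugae Rhizoma at the high dose (-0.22 ± 0.06, adjusted p = 0.0358, 2.15% of genes called lower). CRY2 ranged over 5.81 to 9.61 CPM and was called nowhere, with or without the 4 libraries. Its log2 changes ran from -0.22 to 0.15, and 0 of 31 had an unadjusted p below 0.05.

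BHLHE40, an E-box repressor that stress and hypoxia also induce, was a little higher in treated cells than in vehicle at nearly every dose. Vehicle read 120.4, 117 and 121 CPM, the second lowest group mean of 25. Of the 52 treated libraries outside the 4 that stand apart, 51 were above the highest vehicle library. All 18 such low-dose libraries were above it, which held for 0.533% of all tested genes. No single comparison called BHLHE40 with all 59 libraries in edgeR, and 2 of 31 had an unadjusted p below 0.05. The vehicle libraries have a library code of their own, so a difference of the vehicle libraries from all others cannot be told apart from an effect of every extract.

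At the high dose of Bupleuri Radix BHLHE40 read 145, 155 and 147 CPM. With Aconiti Lateralis Radix Preparata it read 152 and 147 at the medium dose and 136, 145 and 141 at the high dose. The low doses read 136, 132 and 134 CPM for Bupleuri Radix and 133, 129 and 134 for Aconiti Lateralis Radix Preparata. High and low doses of Bupleuri Radix did not overlap, and neither did those of Aconiti Lateralis Radix Preparata. Neither comparison of high against low dose called BHLHE40, with or without the 4 libraries. The changes against vehicle were 0.32 ± 0.14 for Bupleuri Radix high (edgeR adjusted p = 0.254), 0.32 ± 0.15 for Aconiti Lateralis Radix Preparata medium (0.163) and 0.24 ± 0.14 for its high dose (0.458). Without the 4 libraries the adjusted p were 0.000688, 0.000464 and 0.0107, and 7.21%, 16.5% and 7.24% of all genes were called higher. Medium against low dose of Aconiti Lateralis Radix Preparata, added later, it was 0.19 ± 0.07 without them (adjusted p = 0.0394, 17.8% of genes called higher).

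With Citri Unshius Pericarpium, BHLHE40 was the most uneven. It read 137, 168 and 83.4 CPM at the high dose, 133, 163 and 105 at the medium dose and 125, 136 and 139 at the low dose. Cimicifugae Rhizoma read 126, 117 and 132 CPM, then 153, 116 and 129.7, then 123, 90.4 and 133. The readings of 83.4, 105, 116 and 90.4 CPM are the 4 libraries. Without them the high dose of Citri Unshius Pericarpium was called above vehicle (0.36 ± 0.07, adjusted p = 0.00985, 0.878% of genes called higher) and above that of Cimicifugae Rhizoma (0.29 ± 0.07, 0.0255, 1.62%), and its medium dose above vehicle (0.31 ± 0.07, 0.0231, 1.68%). Each of those Citri Unshius Pericarpium groups then had 2 libraries, which also differed from each other. BHLHE40 read 168 and 163 CPM in replicate 2 at the high and medium dose, and 137 and 133 CPM in replicate 1. Between these replicates chi-square per degree of freedom was 30.3 at the high and 79.3 at the medium dose. The closest pair of the series had 2.19.

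The other replicated groups read 122 to 145 CPM for BHLHE40. Coptidis Rhizoma read 129 and 128, 125 and 134, and 135 and 138 CPM from high to low, and Zizyphi Fructus 130.1 and 133, 129 and 145, and 134 and 130.0. Bupleuri Radix at the medium dose read 129.7, 136 and 138 CPM, and Yijung-tang 143 and 129, 122 and 134, and 131 and 129 from high to low. None of these comparisons with vehicle was called with or without the 4 libraries.

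BHLHE41, the close relative of BHLHE40, had its highest group mean with medium-dose Aconiti Lateralis Radix Preparata, 0.565 ± 0.0415 CPM against 0.306 ± 0.0467 in vehicle. It was called nowhere (lowest edgeR adjusted p 0.114, with 1 of 31 unadjusted p below 0.05). BHLHE41 overlaps SSPN by 3137 bases of the opposite strand. SSPN averaged 0.693 CPM in vehicle and 0.915 CPM with medium-dose Aconiti Lateralis Radix Preparata, and what its reads add to BHLHE41 was not tested. DBP, whose transcript is among the most strongly rhythmic of clock outputs in many tissues, averaged 2.40 ± 0.232 CPM in vehicle. It was above the highest vehicle library in 13 of the 18 low-dose libraries, and 11.8% of all genes were above it at least as often. Its lowest group mean was 1.90 ± 0.3001 CPM with Coptidis Rhizoma at the high dose. The 4 libraries that stand apart read 3.77 to 5.99 CPM, against 1.69 to 4.03 in the other 55. DBP was called nowhere with or without those libraries (lowest edgeR adjusted p 0.299 and 0.133, with 4 of 31 unadjusted p below 0.05), and it overlaps SPHK2 on the opposite strand.

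**Figure D2:**
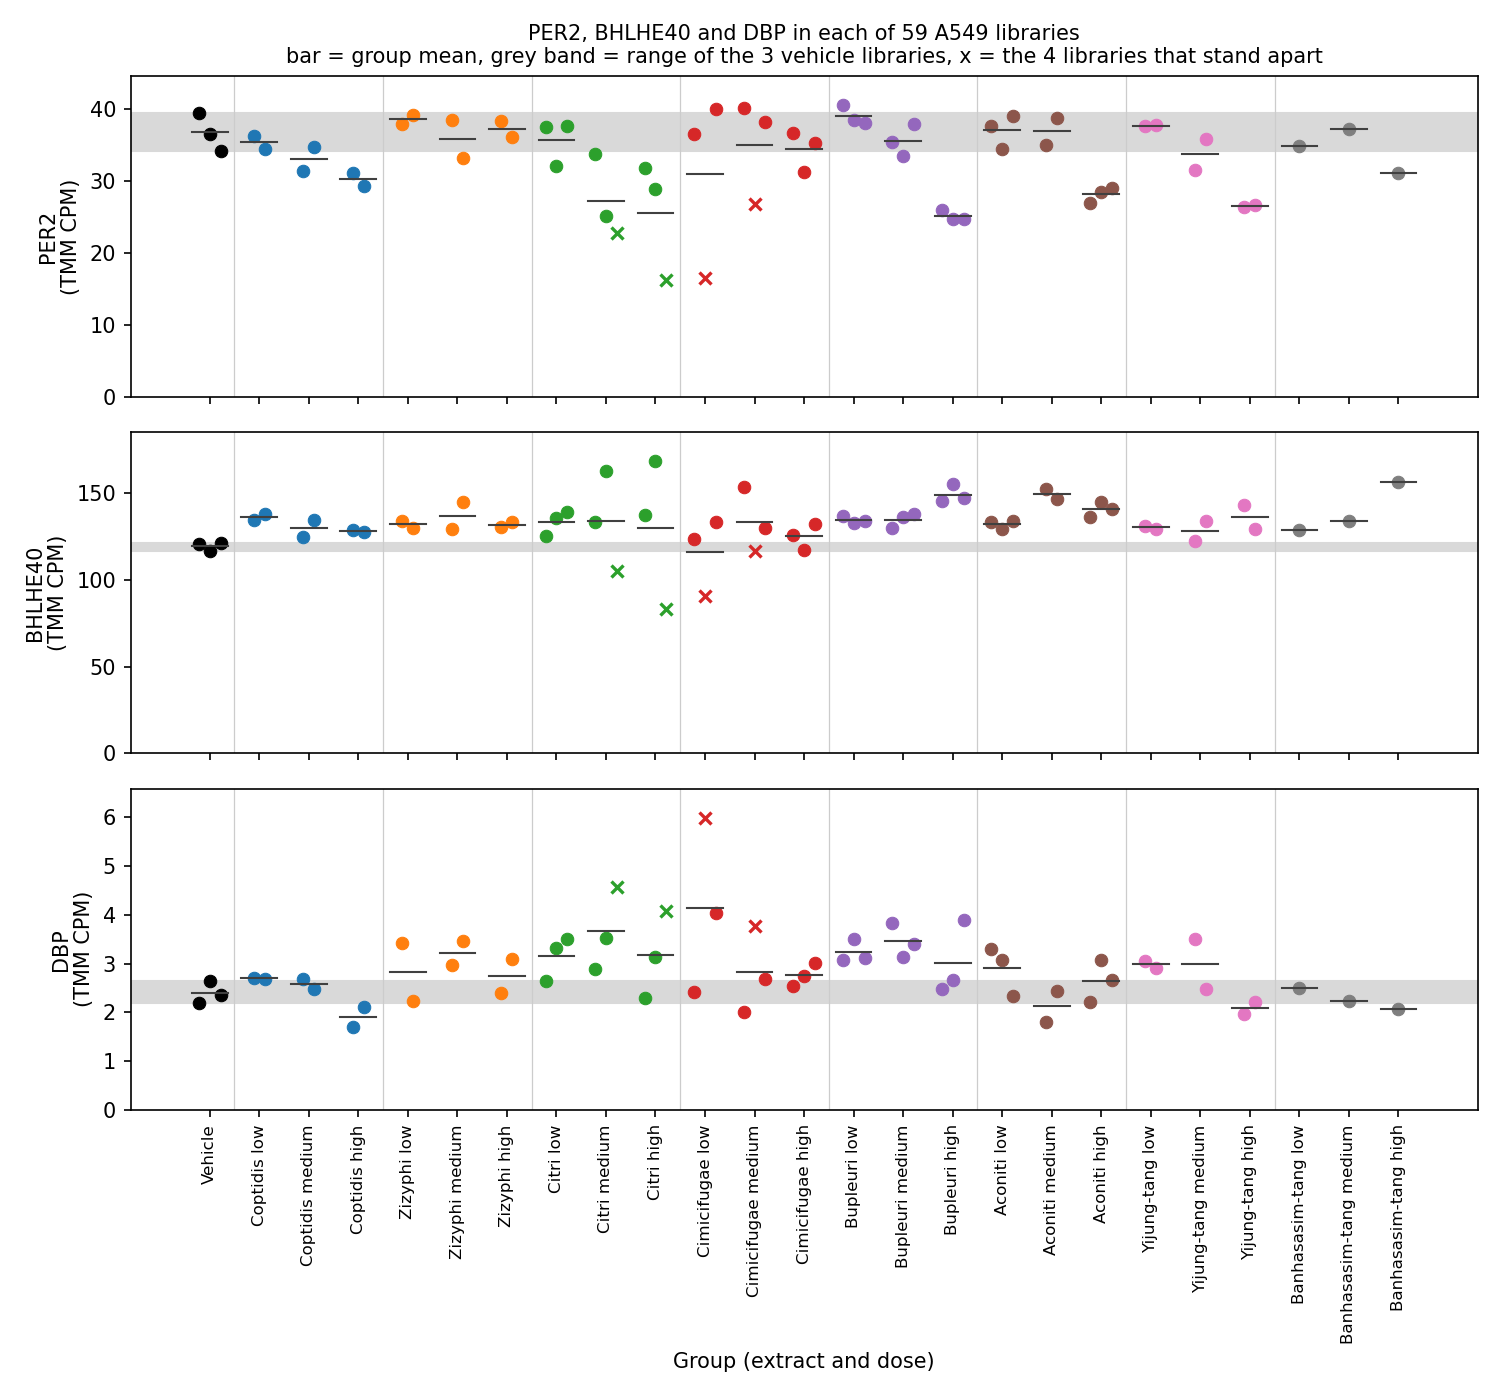
CPM of PER2, BHLHE40 and DBP on the vertical axes for each of the 59 libraries, by extract and dose along the horizontal axis, with dots, bars, band and crosses for libraries, group means, vehicle range and the 4 libraries that stand apart. PER2 is low at the high doses of Bupleuri Radix (mean 25.1 CPM) and Yijung-tang (26.5 CPM), and BHLHE40 is above the vehicle band in 51 of 52 treated libraries outside the crosses.

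Counted over the 21 comparisons with vehicle, 5 of the 210 pairs of a member and a comparison were called, all higher: NR1D2 in 2 and NR1D1 in 3. Over all genes 2.29% of such pairs were called. High against low dose gave 3 of 70 pairs (1.62% over all genes) and extract against extract 1 of 30 (5.71%). Without the 4 libraries the counts against vehicle were 16 higher and 7 lower (6.49% of pairs over all genes), between doses 6 higher and 4 lower (3.98%), and between extracts 4 higher and 2 lower (9.4%). The 21 comparisons share the 3 vehicle libraries. Over the 31 comparisons the members ranked NR1D2 (4 calls), NR1D1 (4), PER3 (1), then the members without a call, of which BHLHE40 and PER2 have the highest mean CPM. The median log2 change of the 10 members was 0.29 with medium-dose Aconiti Lateralis Radix Preparata and -0.03 at the high dose of Coptidis Rhizoma, beside -0.01 over all genes in each.

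**Figure D3:**
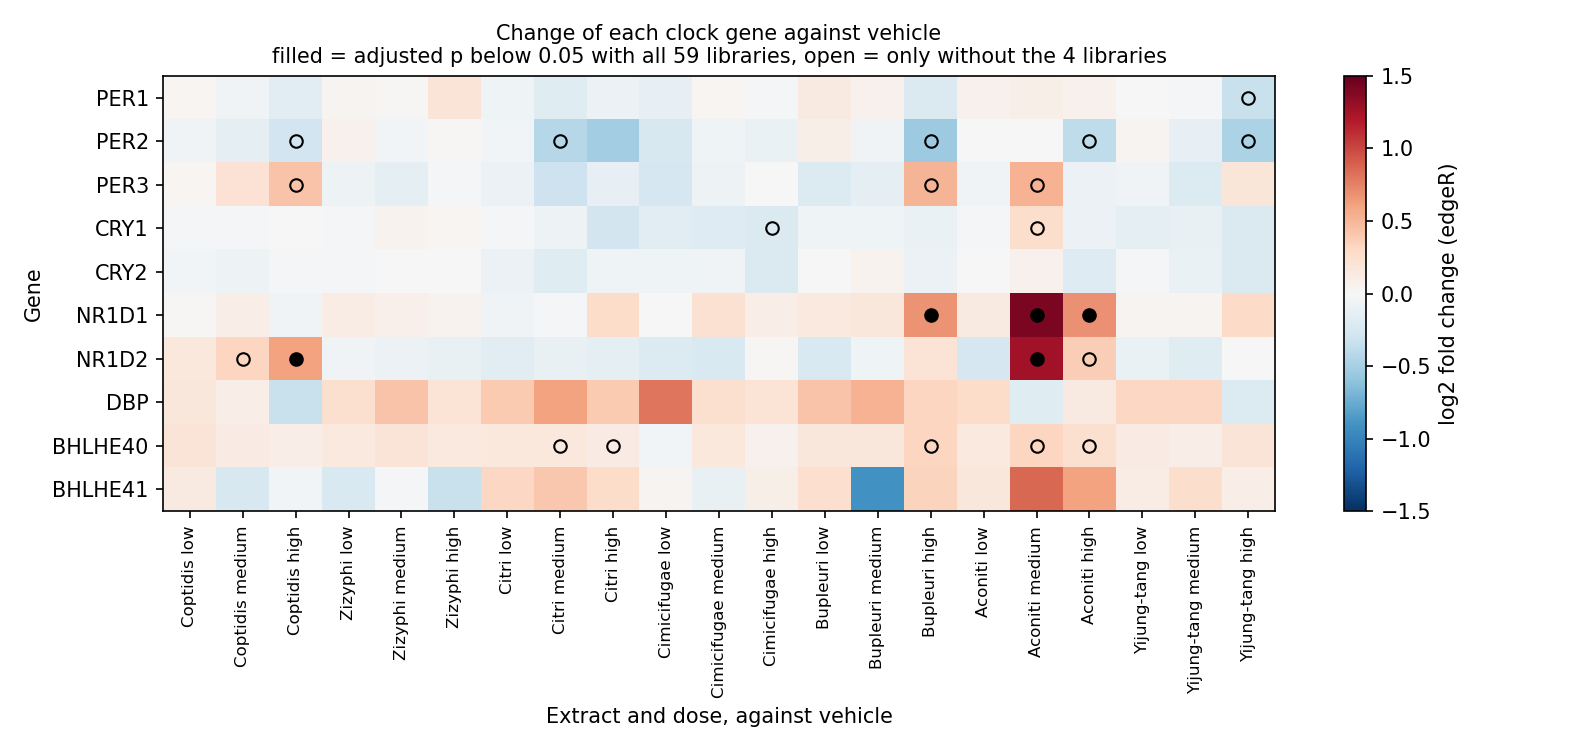
Log2 fold change against vehicle (edgeR; colour, blue lower and red higher) for the 10 members in rows and the 21 extract and dose groups with replicates in columns. Filled circles mark an adjusted p below 0.05 with all 59 libraries (5 pairs) and open circles those reached only without the 4 libraries that stand apart.

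A list of 19 other clock genes with enough counts to be tested was read in the same way. With medium-dose Aconiti Lateralis Radix Preparata 6 of the 19 rose and 0 fell, where 8.23% of all genes were called higher and 9.28% lower. CIART, a repressor of the CLOCK and BMAL1 pair, went from 0.136 ± 0.0875 CPM in vehicle to 1.13 ± 0.177 (log2 change 3.01 ± 0.58, edgeR adjusted p = 0.000128). Its vehicle level was below that of BHLHE41 (0.306 CPM), so the size of this change rests on few counts. SIRT1, a deacetylase that acts on BMAL1 and PER2, rose by 1.08 ± 0.17 (adjusted p = 8.45e-06). BMAL2, a relative of BMAL1, rose by 0.79 ± 0.19 (0.0023), NFIL3, the D-box repressor opposed to DBP, by 0.72 ± 0.13 (6.1e-05), NPAS2 by 0.66 ± 0.15 (0.00111) and the kinase gene CSNK1E by 0.56 ± 0.17 (0.0155).

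BMAL1, the gene that REV-ERB proteins repress, was at 8.73 ± 0.203 CPM at that dose and 10.7 ± 1.10 in vehicle. The log2 change was -0.29 ± 0.15 (adjusted p = 0.212, and 0.0161 without the 4 libraries). Against the low dose of the same extract, a comparison added later, BMAL1 fell by 0.47 on the log2 scale (adjusted p = 0.0212). Between the high and the low dose, where both NR1D genes were also called higher, BMAL1 differed by -0.06 ± 0.13 (adjusted p = 1). With high-dose Aconiti Lateralis Radix Preparata, NPAS2 was the only call against vehicle among the 19 (0.62 ± 0.13, adjusted p = 0.00266). High against low dose, BMAL2 (0.65 ± 0.17, 0.0235) and NPAS2 (0.46 ± 0.13, 0.0487) rose.

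Coptidis Rhizoma at the high dose gave 4 rises and 1 fall among the 19, where 6.41% of all genes were called higher and 6.14% lower. USP2, a deubiquitinase of clock proteins, rose by 1.46 ± 0.28 log2 units (edgeR adjusted p = 0.000212), NFIL3 by 0.84 ± 0.13 (8.27e-06), NPAS2 by 0.73 ± 0.15 (0.00051) and BMAL1 by 0.50 ± 0.15 (0.0153). TIMELESS, better known for DNA replication, fell by 0.22 (adjusted p = 0.0432). NPAS2 (0.53 ± 0.15, 0.0352) and NFIL3 (0.51 ± 0.13, 0.0219) also rose at its medium dose. High against low dose, NFIL3 (0.69 ± 0.15, 0.00342) and USP2 (1.41 ± 0.32, 0.00766) rose. CSNK1E was called higher with high-dose Citri Unshius Pericarpium (0.57 ± 0.15, 0.0372), a call absent without the 4 libraries.

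**Figure D4:**
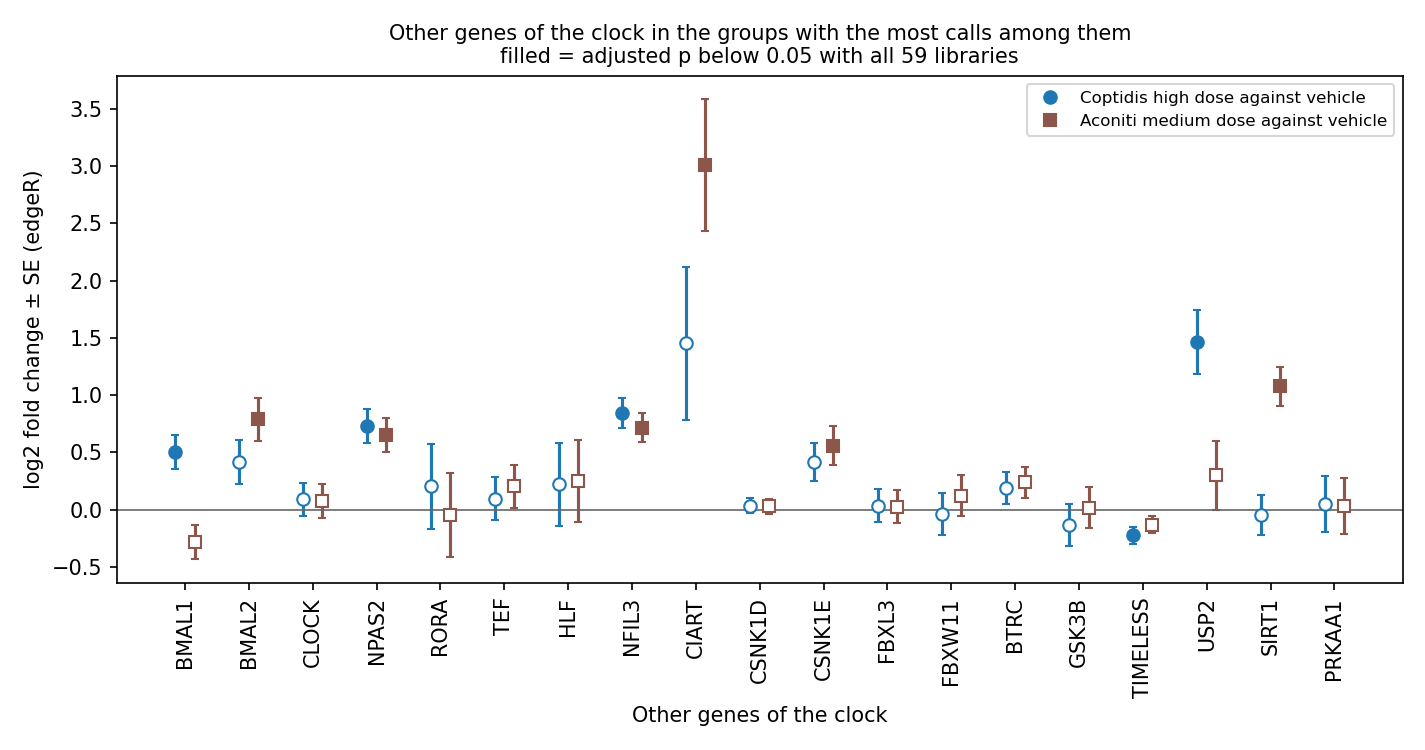
Log2 fold change against vehicle with its SE (edgeR, vertical axis) for the 19 other clock genes tested, for Coptidis Rhizoma at the high dose (circles) and medium-dose Aconiti Lateralis Radix Preparata (squares). Filled symbols have an adjusted p below 0.05. CIART, barely expressed in vehicle, shows the largest change (3.01), and BMAL1 lies on opposite sides of 0 in these groups.

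Genes of pathways that feed into the clock were counted with medium-dose Aconiti Lateralis Radix Preparata, where 8.23% of all genes were called higher and 9.28% lower. Of 10 cAMP and CREB or immediate early genes 6 rose and 0 fell, among them EGR1 (log2 change 5.01 ± 0.46), FOSB (5.19 ± 0.58), NR4A2 (3.00 ± 0.29) and NR4A1 (1.92 ± 0.21). Of 9 glucocorticoid receptor targets 5 rose, with TSC22D3 first (1.79 ± 0.18), and CEBPD fell (-0.92 ± 0.22), while FKBP5 was at -0.15 ± 0.12 and not called. Hypoxia targets split, with VEGFA and NDRG1 higher and CA9, EGLN3 and SLC2A1 lower. Of 6 AhR targets 3 rose, and CYP1A1 was not called (0.17 ± 0.33). Of 8 proliferation genes 6 fell, TOP2A by 0.72 on the log2 scale. The median log2 change was 1.40 for the cAMP and CREB list, 0.57 for the glucocorticoid list and -0.45 for the proliferation list, beside -0.01 over all genes. Markers moved at this dose too: 6 of 8 genes of the A549 epithelium list fell, CDH1 most (from 31.04 to 5.32 CPM). Of 10 markers of other cell types 5 were tested, of which CD68 rose from 6.18 to 29.3 CPM, and COL1A1 and ACTA2 fell. PTPRC, CD3E, MS4A1, PECAM1 and VWF were at most at 0.166 CPM in every library. The part of these changes in those of the NR1D genes was not tested.

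The genes most like each member were taken by Pearson correlation of log2 CPM over the 25 group means, among genes with a mean of at least 5 CPM. The groups share libraries of a set and a single vehicle, so these are descriptions. Medium-dose Aconiti Lateralis Radix Preparata weighs heavily in the r values of the NR1D genes. Its means were 48.6 CPM for NR1D2 and 22.6 for NR1D1, and the next highest group means were 30.9 and 13.6 CPM. The r values without that group were not computed. NR1D2 ran closest to SOWAHC (r = 0.965), BMAL2 (0.958) and SMURF2 (0.957). NR1D1 ran closest to CD44 (0.922), HMGA2 (0.911) and PXN (0.897), and PER3 to MRNIP (0.908), RASSF3 (0.881) and ANKRD27 (0.847). For BHLHE40 they were RABL2B (0.825), CD68 (0.820) and ITPR3 (0.794), and for PER2 FERMT2 (0.835), ABTB2 (0.830) and CTDSPL2 (0.810). The values for BHLHE40 and PER2 dropped to at most 0.743 and 0.762 without the 4 libraries, whereas those for NR1D2 stayed at 0.955 or more. Between members, NR1D2 had r = 0.778 with PER3 and 0.685 with NR1D1, and PER2 had r = 0.690 with PER1 and -0.04 with NR1D2. Without the 4 libraries the values for PER2 were 0.719 with PER1, -0.29 with NR1D2, -0.41 with PER3 and -0.44 with BHLHE40.

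Banhasasim-tang had 1 library per dose and was not tested. At its high dose BHLHE40 read 156 CPM, 1.31 times the vehicle mean and the highest group value of the series, and NR1D2 read 26.4 CPM, 1.2997 times it. That library held 15.2% of its counts in mitochondrial rRNA, the highest of the series, and the medium-dose library, with NR1D2 at 21.7 CPM, held 11.5%. The part of this in these levels was not tested. PER2 read 31.03 CPM (0.845 times) and PER1 12.0 CPM (0.828 times), both below every vehicle library. NR1D1 at 8.66 CPM and PER3 at 5.17 CPM were 1.02 and 1.07 times the vehicle mean. At the medium and the low dose NR1D1 read 8.74 and 9.07 CPM, NR1D2 21.7 and 21.04, PER3 5.04 and 4.30, PER2 37.2 and 34.8, and BHLHE40 134 and 129.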

How the data were processed

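Bulk RNA-seq of 59 A549 libraries was used. Per the submitters' processing notes, the tools were RSEM 1.3.3 and STAR 2.7.3a, after Trim Galore 0.6.5 and FastQC 0.11.9, and the builds GRCh38 and hg38. For annotation release and strand setting, nothing was given in the sources used here. Per gene, the authors deposited unscaled expected counts, of which 84.4% were whole. The table also has 210 per-sample columns of other series, which were not used.

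Expected counts were rounded, scaled by TMM and filtered with filterByExpr (minimum count 10, minimum total 15). A single edgeR 4.0.16 quasi-likelihood model in R 4.3.3 was fitted with 25 group means with 34 residual and 4.64 prior degrees of freedom. Benjamini-Hochberg adjustment ran over the 18568 genes of each comparison, with calls at an adjusted p below 0.05. SE is the absolute log2 change divided by the square root of F. There were 31 comparisons (21 against vehicle, 7 high against low, 3 between extracts of a set), and 8 with a medium dose were added after values had been seen. CPM values are TMM-scaled, and log2 CPM for likeness used a prior count of 2. GENCODE 29 on GRCh38 gave the positions, and 57055 gene IDs had a symbol.

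The members, lists and tests were chosen with earlier results of these data known. Members called were named in full, the 5 with the most calls (ties by mean CPM) were given in every library, and other clock genes were named where called. No label states if replicates were separate cultures, so p-values measure only the spread between these libraries, which may be technical. Of 46 pairs of libraries of a group none was identical, and all differed by more than sampling noise (chi-square per degree of freedom 2.19 to 249.7).

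Replicate numbers in the labels were checked for pairing by the correlation of deviations from group means. In 0 of the 11 comparisons with vehicle that had 3 pairs was every pair over 0.1; in comparisons within a set this held only for Citri Unshius Pericarpium high and medium against low and Cimicifugae Rhizoma medium against low. On simulated counts for Aconiti Lateralis Radix Preparata medium against vehicle (17988 genes), the fit recovered 19 of 50 genes changed 1.5-fold, 45 of 50 changed 2-fold and 50 of 50 changed 3-fold. Those counts used a single mean per gene and the dispersion trend, with no spread particular to a gene. They held no other group effects and no libraries that stand apart, so these shares do not measure recovery in the real libraries. The alternatives were RLE scaling, DESeq2 1.42.0, no filter, robust dispersions, replicate blocks, only the extracts compared, without the 4 libraries, and leaving out each library, where the dispersion trend of the whole fit was kept.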

Additional observations from a re-analysis of the deposited data

How the results depend on the processing

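The member calls against vehicle numbered 5 as reported, 8 with no low-count filter, 23 without the 4 libraries that stand apart and 30 with only the extracts compared in the fit. Over all genes the calls numbered 8917, 10367, 24980 and 38274 in the same order, so calls over all genes rose with those of the members. High against low doses gave 3 as reported, 5 with no filter, 10 without the 4 libraries, 13 with only the extracts compared and 6 with DESeq2 (2111, 3780, 5115, 8737 and 3520 over all genes). Extract against extract gave 1 as reported, 2 with no filter, 6 without the 4 libraries, 6 with only the extracts compared and 2 with DESeq2 (3180, 3795, 5169, 7002 and 4187 over all genes). The 8 comparisons added later gave 6 as reported, 4 with no filter (both PER3 calls were lost), 12 without the 4 libraries and 10 with only the extracts compared (4757, 4850, 12031 and 12152 over all genes). RLE scaling, robust dispersions and the replicate block left these counts at 5, 3, 1 and 6. The replicate block within library sets moved high against low to 5 and extract against extract to 3; the added comparisons stayed at 6. With 1 library left out the counts ran from 4 to 8 against vehicle, 1 to 5 between doses, 0 to 3 between extracts and 3 to 8 in the added comparisons. No value changed its direction past the threshold under any alternative run. Groups of 2 or 3 libraries and BHLHE41 counts of 2 to 18 limit what could be called. Leaving a library out of a group of 2 leaves 1, assumed to vary like the other groups.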

Other observations

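Pathways that feed into the clock also moved at the high doses of other extracts, with the same lists as above and edgeR calls with all 59 libraries. Of the 6 AhR targets, 5 rose with Coptidis Rhizoma, 4 with Bupleuri Radix, 5 with Aconiti Lateralis Radix Preparata and 4 with Yijung-tang, with median log2 changes of 2.00, 1.04, 0.74 and 1.03. With high-dose Cimicifugae Rhizoma 4 of them rose (median 1.23), with Citri Unshius Pericarpium 1 (0.31) and with Zizyphi Fructus 0 (0.27), where 0.151%, 3.52% and 0% of all genes were called higher. Of the 8 proliferation genes, 8, 3, 4 and 2 fell in the order Coptidis Rhizoma, Bupleuri Radix, Aconiti Lateralis Radix Preparata and Yijung-tang. Of the 10 cAMP and CREB genes, 1 rose and 3 fell with Coptidis Rhizoma, 2 rose and 3 fell with Bupleuri Radix, 3 rose and 1 fell with Aconiti Lateralis Radix Preparata, and 0 rose and 2 fell with Yijung-tang. For the same 4 extracts in turn, the share of all genes called higher was 6.41%, 2.05%, 2.56% and 0.781%, and the share called lower 6.14%, 1.31%, 2.09% and 0.587%. The part of these changes in the levels of the clock genes was not tested.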
